A study of Bos taurus with 2 samples.

Results

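The genes considered here are those of axonemal dyneins and their assembly factors, tektins and radial spoke proteins, as measured on testis RNA of crossbred and Zebu bulls. They were taken as every gene whose name on the array starts with DNAH, DNAI, DNAL, DNAAF, TEKT or RSPH, which gave 26 genes of 32429 gene names, with 43 probes of 51282 and 53 spots of 61657. The crossbred group was 3 Holstein Friesian crossbred bulls with 50 to 75% exotic inheritance, and the Zebu group was 3 bulls of the Tharparkar breed, all aged 24 months, and no treatment was compared. The RNA of 1 testis per bull, removed by castration on 1 side, was mixed into a pool per group. Each pool, carrying the dye Cy3, went onto 1 bovine array of 60-base probes, and the arrays share a slide. Because a group is 1 array, the spread between bulls is not measured, the groups cannot be tested against each other, no p-value is printed and precision is limited by the number of arrays.

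The axoneme is the motor of cilia and of the sperm tail, a ring of doublet microtubules around a central pair. Dynein arms, built of heavy chains that split ATP and of smaller intermediate and light chains, reach from each doublet to its neighbour and slide it. The arms are put together in the cytoplasm with the help of assembly factors, tektins are filament proteins that lie along the inner wall of the doublets, and radial spokes pass signals from the central pair to the arms. In the testis, the tail is built by spermatids, the haploid cells that turn into sperm.

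Each value is a normalized log2 signal, the log2 of the processed signal of a spot minus the 75th percentile of its array, so that 0 is a fairly bright probe. Differences are always crossbred minus Zebu on this scale, and signals are given in the same order. Where a gene had several probes, the one brightest on average over the 2 arrays was used. Signals of different probes depend on the probe as well as on the transcript and are not ranked against each other. A probe is called measured on an array where the scanner software marked it as well above background there. By this mark 25 of the 26 genes were measured on both arrays, and RSPH4A was not well above background on either. A gene name counts as detected if at least 1 array measured its probe, which held for 24751 names.

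The axonemal genes were mostly higher in crossbred testis, by amounts of about 1 on the log2 scale. Of the 25 genes, 22 were higher on the crossbred array, against 46.8% of all detected gene names. Their median difference was 0.94, and the median over all detected names was -0.06. The difference was 0.5 or more in 20 of the 25, a size that 24% of all detected names reached, and 1 or more in 11 of the 25, which 12.8% reached. None was lower by 1 or more, against 8.87% of all detected names. At 1.5, the size at which the study called transcripts, 2 genes were higher, DNAH3 and TEKT4, against 7.12% of all names, and none was lower, against 2.92%. At that size the share of the set, 2 of 25, was close to the share of all names. Most of the genes were thus higher, by sizes between 0.5 and 1.5. These shares describe 2 arrays, and genes of an array are not independent replicates.

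**Figure D1:**
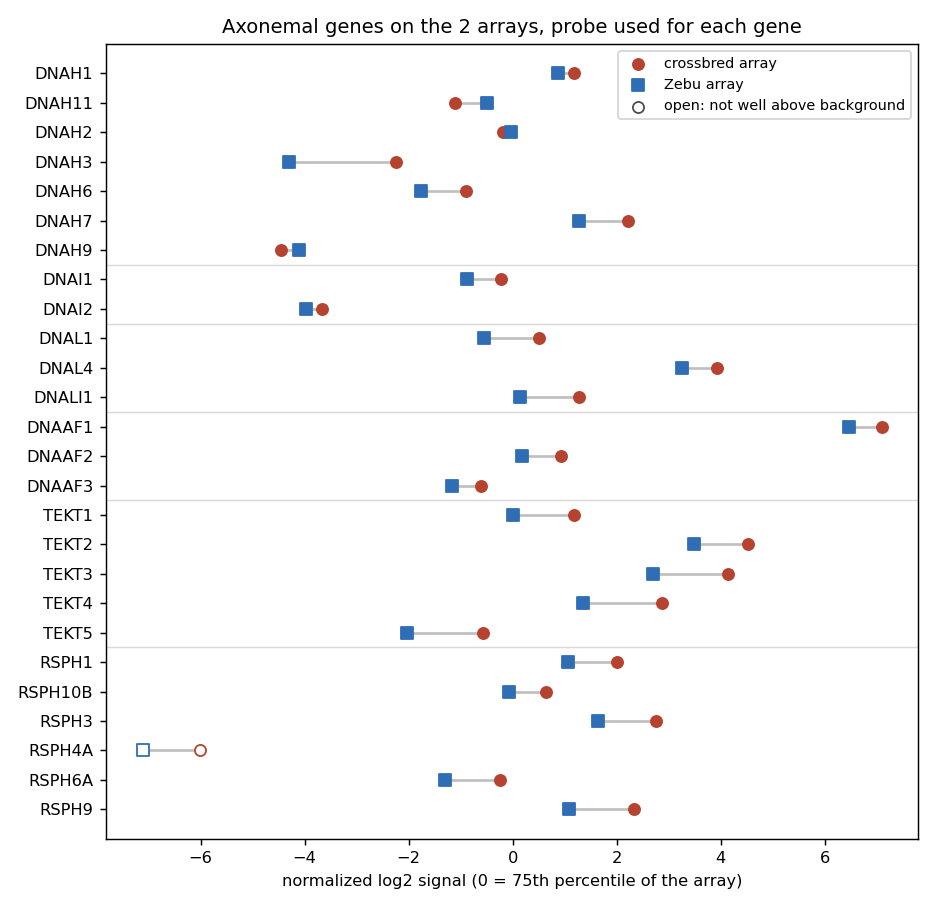
Normalized log2 signal (x axis, 0 is the 75th percentile of the array) of the probe used for each of the 26 genes (y axis, grouped by family with grey lines between the families), with circles for the crossbred array and squares for the Zebu array, and open symbols for a probe not well above background. The crossbred circle lies to the right of the Zebu square in 22 of the 25 genes with filled symbols, and the exceptions are DNAH2, DNAH9 and DNAH11.

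The error of a value can be judged from probes spotted several times. Over 5960 such probes that were well above background in every spot, the SD between spots of a probe was 0.29 for crossbred signals, 0.18 for Zebu signals and 0.33 for the difference. Over the 6 such probes of the axonemal genes it was 0.11, 0.07 and 0.16. The error model of the scanner software gave a standard error of the difference between 0.10 and 0.34 for the 40 probes measured on both arrays. All of these cover spotting, scanning and background only.

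The tektins had the highest differences as a family. All 5 had differences of 1 or more, between 1.04 and 1.52, with a median of 1.44. TEKT4, a tektin of the sperm tail, had 2.87 in crossbred and 1.35 in Zebu testis, which differ by 1.52 or 2.86-fold. Its 2 spots gave 1.65 and 1.39, so that the spots themselves lie on either side of 1.5. With quantile normalization it was 1.45, under that size. TEKT5, another tektin of sperm tails, had -0.57 and -2.04, which differ by 1.47, and a second probe differed by 1.0 from -3.08 and -4.09. TEKT3 had 4.13 and 2.69, which differ by 1.44, and a second probe had -0.46 and -2.02, a difference of 1.56. For TEKT1, which with TEKT2 is found in cilia as well as sperm tails, the signals were 1.17 and 0.01, and they differed by 1.17. TEKT2 had the smallest difference of the family, 1.04 from 4.52 and 3.48. On every one of the 7 tektin probes the crossbred array was the brighter by 1.0 to 1.56, so the direction did not depend on the probe.

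The probes that carry these values are 60 bases long. Those below have at least 1 sense reading frame without a stop over that length, which is too short to show coding sequence. They are printed 5′ to 3′ as the scanner files give them, and no part is marked by capitals. They are shown so that the transcripts behind the values of TEKT4, TEKT1 and TEKT5 and behind the second TEKT3 value can be traced, and their places are those that the array design gives on the build HGSC Btau_3.1. TEKT4 is read from chr25:1323264-1323323 on the minus strand, TEKT3 by its second probe from chr19:33722327-33722386 on the minus strand, and TEKT1 from chr19:25167879-25167938 on the minus strand. The brighter TEKT5 probe was placed on an unplaced contig, and its second probe on chromosome 25.
TEKT4: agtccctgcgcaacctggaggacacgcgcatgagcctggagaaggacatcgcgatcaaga
TEKT3: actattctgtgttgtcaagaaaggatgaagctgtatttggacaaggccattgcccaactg
TEKT1: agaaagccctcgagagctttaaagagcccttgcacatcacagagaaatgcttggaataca
TEKT5: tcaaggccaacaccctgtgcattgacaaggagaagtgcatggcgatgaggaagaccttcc

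Among the radial spoke proteins, the 5 that were detected were all higher in crossbred testis, between 0.71 and 1.26, with a median of 1.05. RSPH9, a protein of the spoke head, had the highest difference, 1.26, with 2.34 in crossbred and 1.08 in Zebu testis. Its probe was spotted 4 times, and the 4 differences lay between 1.24 and 1.28. RSPH3, of the spoke stalk, had 2.75 and 1.64, a difference of 1.11, and a second probe in another part of the transcript differed by 1.18 from -3.30 and -4.48. RSPH1, also of the head, had 2.0 and 1.06, a difference of 0.94. RSPH10B was the lowest of the family with 0.71, from 0.63 and -0.08. Its other probes, at -1.68 and -1.89 and at -3.77 and -4.10, gave 0.21 and 0.34, close to or under the SD between spots.

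The spoke head has a pair of related proteins, RSPH4A in motile cilia and RSPH6A in the sperm tail, and RSPH6A alone was measured on these arrays. RSPH6A had -0.24 in crossbred and -1.29 in Zebu testis, which differ by 1.05, with 0.99 and 1.11 in its 2 spots. The RSPH4A probe, at -6.01 and -7.11, was not well above background on either array, and no difference is given for it. The probes of the pair are printed to show that they are separate sequences, with no shared run of bases longer than 6. The longest run shared by probes of any 2 different genes of the set was 12 bases. The RSPH9 probe, printed for its 4 spots, maps over 474 bases of the genome, from chr23:17783900-17784373 on the plus strand, so that it joins 2 stretches apart in the genome. RSPH6A is read from chr18:53116148-53116207 and RSPH4A from chr9:35657689-35657748, both on the minus strand.
RSPH6A: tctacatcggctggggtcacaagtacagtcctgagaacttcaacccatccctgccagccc
RSPH4A: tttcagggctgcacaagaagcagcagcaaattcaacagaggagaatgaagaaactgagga
RSPH9: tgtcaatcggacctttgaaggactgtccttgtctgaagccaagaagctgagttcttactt

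The dynein heavy chains did not all differ in the same direction. Of 7 genes, 4 were higher and 3 lower in crossbred testis, over a range from -0.62 to 2.06 and with a median of 0.30. DNAH3, a heavy chain of the inner arms, had the highest difference of all 26 genes, with -2.24 in crossbred and -4.30 in Zebu testis. The difference of 2.06, or 4.16-fold, rests on 1 probe with 1 spot, and the accession of this probe is not in the ARS-UCD2.0 gene table. With normexp background correction, which draws dim signals together, it was 1.31 and no longer past 1.5. Of all detected gene names, 3.16% had a higher difference.

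The inner arm chains DNAH7 and DNAH6 came next. DNAH7 had 2.22 and 1.27, a difference of 0.95, and a second probe, at -4.23 and -4.62, gave 0.39. DNAH6 was read by 3 probes, at -0.89 and -1.76 for a difference of 0.86, at -1.73 and -2.63 for 0.91, and at -5.13 and -5.35 for 0.22. In both genes the probe nearest to background gave the smallest difference. DNAH1, needed for the inner arms of sperm tails, differed by 0.30, less than the SD between spots, from 1.18 and 0.88.

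DNAH2, of the inner arms, and DNAH9 and DNAH11, heavy chains of the outer arms of motile cilia, were the 3 genes of the set that were lower in crossbred testis. DNAH11 had -1.11 in crossbred and -0.49 in Zebu testis, which differ by -0.62, and a second probe, at -3.67 and -3.48, differed by -0.19. DNAH2 had -0.18 and -0.03, which differed by -0.15, within the SD between spots. Its second probe was dimmer, at -5.11 and -4.44, and differed by -0.68. DNAH9 had -4.46 and -4.11, a difference of -0.35, but its 2 spots gave -0.66 and -0.03. The DNAH9 mean lies close to the SD between spots, and its spots do not agree on a size. The probes used for DNAH11 and DNAH9 are shown because these genes had the lowest differences of the set. They lie at chr4:31979697-31979756 and chr19:31316200-31316259, both on the plus strand.
DNAH11: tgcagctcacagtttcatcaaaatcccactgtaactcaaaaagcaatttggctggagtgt
DNAH9: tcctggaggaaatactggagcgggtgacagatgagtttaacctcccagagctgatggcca

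Intermediate and light chains were higher throughout in the probes used. DNAI1, an intermediate chain of the outer arm, had -0.22 in crossbred and -0.89 in Zebu testis, which differ by 0.66. DNAI2, its partner, had 4 probes. The brightest by mean had -3.66 and -3.97 and differed by 0.31, and the next had -3.47 and -4.23 and differed by 0.75. The third was well above background on the crossbred array alone, with -5.21. Its measured fold was 1.62, against a dim Zebu signal of -5.90. The fourth was not well above background on either array.

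Of the light chains, DNALI1, the light intermediate chain of the inner arm, had 1.27 and 0.14, a difference of 1.14. DNAL4 had signals of 3.92 and 3.27 and a difference of 0.66, with 0.62 to 0.68 in its 4 spots, and another probe, at -2.33 and -3.16, gave 0.83. DNAL1, a light chain of the outer arm, was the only gene of the set for which the probes that carry its name went opposite ways. The probe used had 0.52 and -0.55, a difference of 1.07, and the other probe, which begins at base 1054 of the same transcript against base 558, had -2.08 and -1.80, a difference of -0.28. The value of DNAL1 therefore depends on the probe.

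The assembly factors DNAAF1, DNAAF2 and DNAAF3 were higher by similar amounts, 0.62, 0.76 and 0.57. DNAAF1 had 7.09 in crossbred and 6.48 in Zebu testis, and its second probe, with 5.77 and 4.81, differed by 0.96. DNAAF2 had 0.93 and 0.17, with 0.87 and 0.65 in its 2 spots. DNAAF3 had -0.60 and -1.17, and its second probe, at -2.39 and -2.73, differed by 0.33. None of the 5 probes of this family reached 1.

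**Figure D2:**
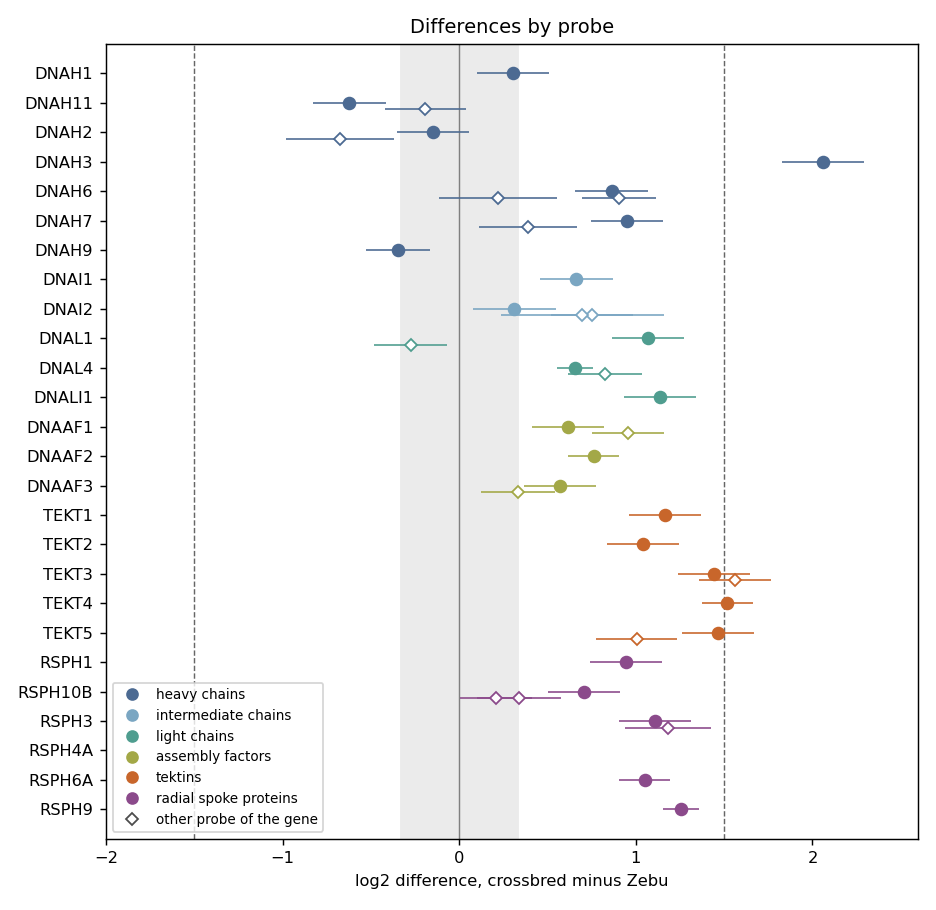
Log2 difference, crossbred minus Zebu (x axis), of each probe of the axonemal genes (y axis), with filled circles for the probe used, open diamonds for the other probes of a gene, 1 of which, of DNAI2, was dim on the Zebu array, bars for the standard error from the scanner error model, a grey band of 0.33 for the SD between spots and broken lines at 1.5. All 7 tektin probes lie between 1.0 and 1.56, the heavy chain probes spread from -0.68 to 2.06, and the 2 DNAL1 probes lie on opposite sides of 0.

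Over the families, the medians of the probes used were 1.44 for tektins, 1.07 for light chains, 1.05 for radial spoke proteins, 0.62 for assembly factors, 0.49 for intermediate chains and 0.30 for heavy chains. The SD between genes was 0.93 among the heavy chains, 0.21 among the tektins and 0.21 among the radial spoke proteins, so that the heavy chains spread more widely than the SD between spots and the tektins did not. The range of the tektins did not overlap that of the intermediate chains or the assembly factors, and it did overlap those of the light chains, radial spoke proteins and heavy chains. Relative to detected names of like signal, the lowest tektin and the highest assembly factor both lay at 0.91, so that separation depends on the scale. With families of 2 to 7 genes on 1 array per group, these are descriptions.

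Taking all 40 probes measured on both arrays, 34 were higher on the crossbred array and 6 lower, with a median of 0.79. Of the 13 genes with several such probes, 12 had all their probes on 1 side of 0, and the exception was DNAL1. The pooled SD between probes of a gene was 0.37. This is near the SD between spots over all repeated probes, 0.33, and above that over the repeated probes of these genes, 0.16. The probes of a gene lay between 0.08 and 1.34 apart. Of the 43 probes, 32 had an accession in the ARS-UCD2.0 gene table, all under the symbol used on the array, and they covered 21 of the 26 genes. The array design places the genes on 13 chromosomes, with 5 on chromosome 19, namely DNAH2, DNAH9, DNAI2, TEKT1 and TEKT3, whose differences ran from -0.35 to 1.44. The DNAH1 probe has no position in the design.

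**Figure D3:**
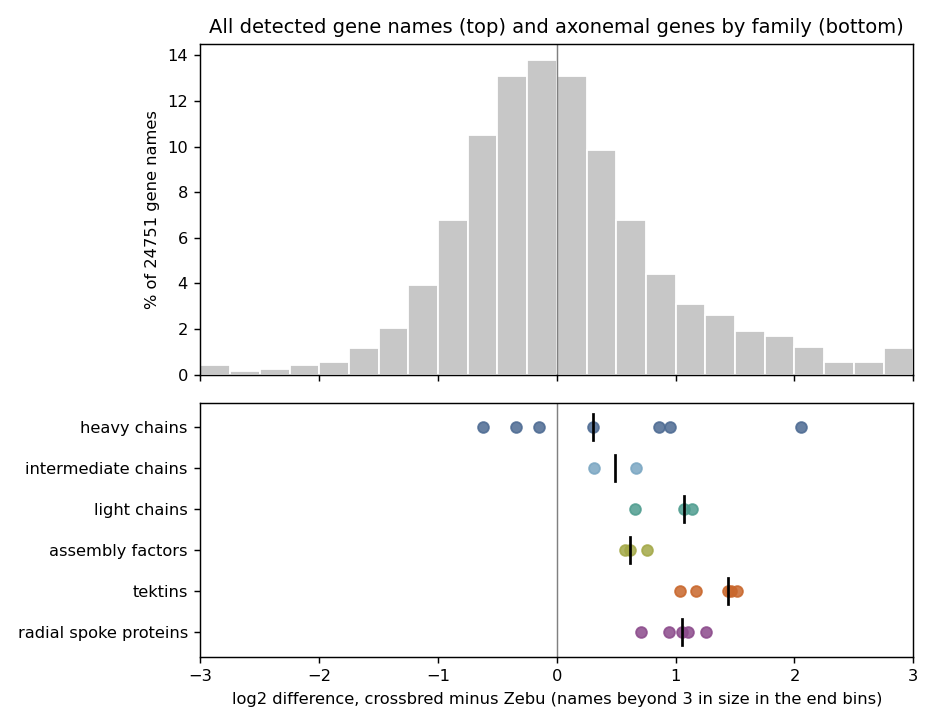
Top, share in percent of the 24751 detected gene names (y axis) by log2 difference, crossbred minus Zebu (x axis, bins of 0.25, names beyond 3 in size in the end bins). Bottom, the 25 axonemal genes by family on the same axis, 1 point per gene with a black line at the median of the family, from 0.30 in the heavy chains to 1.44 in the tektins, where the names above have a median of -0.06.

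The difference between the arrays varied a little with brightness and with the place of a spot, and both are given here for these genes. Detected names within 0.5 of the mean signal of a gene had a median difference between -0.17 and 0.13, depending on the gene. Relative to those names the median over the 25 genes was 0.98, and the 5 tektins lay between 0.91 and 1.6. On the crossbred array 544 spots lie in a dark patch, with a median difference of -1.37, and 105 lie in a bright patch, with a median of 1.29. No spot of the 26 genes lies in either patch, none was marked as an outlier and none was saturated. Around the 53 spots, the median difference of the 18 nearest spots ranged from -0.70 to 0.73 and was beyond 1 in size at none. Beside both TEKT4 spots it was 0.01 and 0.53, the second beside the spot with the smaller difference, and beside the DNAH3 spot it was -0.24. The spot of the brighter TEKT5 probe is the one nearest to the dark patch, and around it the median was 0.01.

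**Figure D4:**
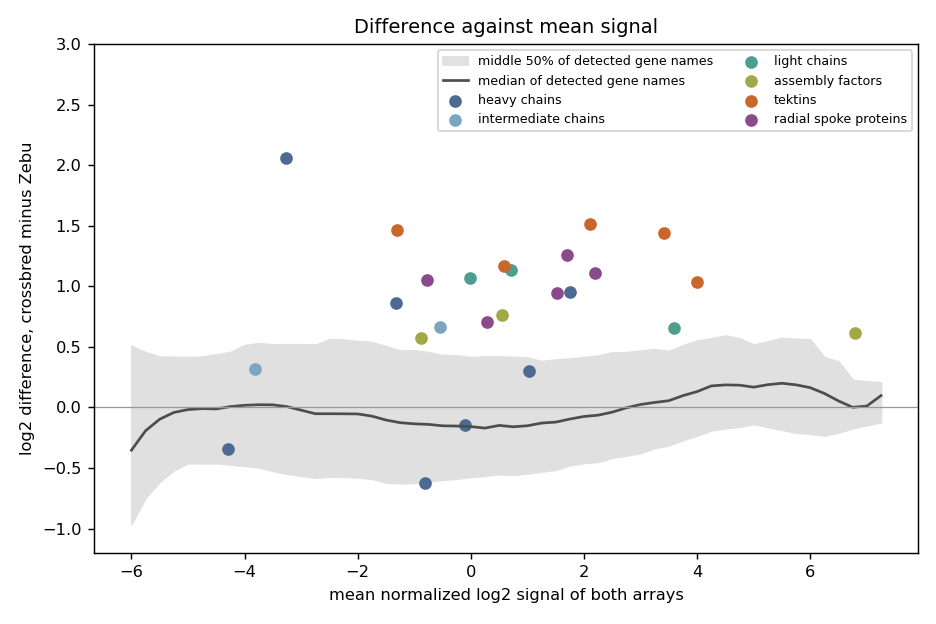
Log2 difference, crossbred minus Zebu (y axis), against the mean normalized log2 signal of both arrays (x axis) for the 25 axonemal genes, coloured by family, over the running median (line) and middle 50% (grey) of all detected gene names within 0.5 of each signal. The tektins and radial spoke proteins lie above the grey band at every signal, and the running median at the signals of these genes stays between -0.17 and 0.13.

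Some genes of the same families stand on the array under other names. By an accession or a synonym that the ARS-UCD2.0 gene table lists, or by the description in the scanner files, 14 further symbols were found, 13 of them measured on both arrays. Of those 13, 9 were higher in crossbred testis, against 46.8% of all detected names, and 4 were lower, with a median of 0.61. They were looked for after the values of the named genes had been seen. Of the 13, 2 were higher by 1.5 or more, against 7.12% of all detected names. The tektin bundle interacting protein TEKTIP1, on the array as C7H19orf71, had 5.23 and 3.29 and differed by 1.94. The spoke protein RSPH14, on the array as RTDR1, had 0.95 and -0.63 and differed by 1.59, with 1.69 in its second probe. DNAI3, as WDR63, differed by 0.53 and DNAI7, as CASC1, by 0.75. Of the assembly factors, DNAAF6, DNAAF8 and DNAAF11 were higher by 0.76, 0.61 and 0.75, while DNAAF4 and DNAAF10 differed by -0.07 and -0.46. The 2 probes of DNAAF9 went opposite ways, with -1.0 and 1.91, and the second probe of DNAAF4 gave 0.38. The descriptions also pointed to 7 further probes of genes of the set, 4 of them measured on both arrays. Those of DNAH1, at 0.26 and -0.12, lay on either side of 0 and within the SD between spots, that of DNAH11 was again lower, at -0.48, and that of DNALI1 again higher, at 1.29.

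Heavy chains absent from the gene names were described on probes named by transcript. DNAH8, the outer arm heavy chain of the sperm tail, had 2.46 in crossbred and 2.17 in Zebu testis, which differ by 0.30, and another probe had -1.97 and -1.49, a difference of -0.48. DNAH5, the corresponding chain of motile cilia, was well above background on the crossbred array alone, at -4.05, in 1 of its 2 probes. Its measured difference was 1.58, or 2.98-fold, against a dim Zebu signal, and it counts as higher by 1.5. DNAH10, of the inner arms, had 1.27 and 0.57 and differed by 0.70, and DNAH14 had 2.85 and 2.97 and differed by -0.12, with 0.52 in a dimmer probe. The probes of DNAH8 and of DNAH14 thus lay on both sides of 0, and no direction is given for either gene.

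The rest of the axoneme was read from 6 lists of genes that work with these families, of which 51 were on the array and 50 detected. Of the 50, 48 were higher in crossbred testis, against 46.8% of all detected names, and 2 lower. By 1.5 or more 4 were higher, a share close to the 7.12% of all names. Lower by that much was 1, WDR78, against 2.92% of all names. Its measured difference was -3.18, with a crossbred signal not well above background. The median of the central pair genes was 1.12, from 0.28 for SPAG16 to 1.5 for the kinesin KIF9. The radial spoke partners had a median of 0.74, with 1.6 for ROPN1, from 4.54 and 2.94, the highest, and 0.47 for ROPN1L the lowest. For the doublet microtubule proteins it was 0.76, with ENKUR highest at 1.3, and for the outer arm docking proteins and their partners 0.66, where CCDC63, of the docking complex of sperm, was highest with 1.73 from 2.51 and 0.77. The nexin-dynein regulatory complex, which links the doublets, had a median of 0.49, with CCDC164 at 1.53 and LRRC48 at 0.13. The assembly genes under other names had 0.46, from -0.07 for DYX1C1, which is DNAAF4, to 1.41 for TTC12. The lists contain some genes already given under their other names, WDR63, LRRC6 and DYX1C1. WDR63, which is the intermediate chain DNAI3, was counted with the outer arm docking proteins and their partners.

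Of the genes of these lists that were lower, WDR78 was measured on the Zebu array alone, at -4.83, and was at least 1.94-fold lower on the crossbred array. DYX1C1 differed by less than the SD between spots. The cytoplasmic dyneins and dynactins had a median of 0.16, with 11 of 18 higher and 7 lower. They ran from -1.46 for DYNC1I1 to 1.61 for the brightest probe of DYNLT3. The other 4 probes of DYNLT3 were lower in crossbred testis, between -0.30 and -1.33, so that its value depends on the probe. The transcription factors of ciliary genes had a median of 1.12, with 6 higher and 1 lower of 7 detected. CREM, which the paper lists among upregulated genes of spermatogenesis, was the highest with 1.54, from 4.31 and 2.77. MYB was the lowest with -1.65, from -4.17 and -2.52, but its other probes gave -0.84 and 0.72.

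Markers of the cells of the testis differed between the arrays too. The 13 spermatid markers, which include protamines, transition proteins and tail proteins, were all higher on the crossbred array, 11 of them by 1.5 or more, which 7.12% of all detected names reached, with a median of 1.86, from 0.36 for PRM1 to 2.92 for SPEM1. The paper had already listed many of them as upregulated on these same 2 arrays. Their count past 1.5 is therefore no separate evidence beside the share of all names. In the qPCR of the paper, SPEM1 went the other way from its array value, while TNP1 and TNP2 were higher in crossbred bulls. The log2 of the summed signal of the 13 markers was 9.54 in crossbred and 8.36 in Zebu testis. The 6 spermatocyte markers on the array were all higher, with a median of 0.30, and their sums were 4.29 and 3.89. Of the 8 spermatogonial markers 6 were lower, with a median of -0.80 and sums of 4.95 and 5.45. All 6 detected Sertoli cell markers were lower, with a median of -0.99 and sums of 7.04 and 7.70, and all 6 Leydig cell markers were lower, with a median of -0.79 and sums of 6.46 and 7.05. In RNA of whole testis, fewer cells of a type and less RNA per cell cannot be told apart, and the part of these markers in the differences of the axonemal genes was not tested.

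The ducts that leave the testis have cilia of their own, so markers of their multiciliated cells and of the epididymis are given beside the axonemal genes. Of 10 markers of multiciliated cells, 5 were on the array, 3 of them higher and 2 lower. FOXJ1, which is also in the list of transcription factors of ciliary genes, had -4.81 and -5.45, a difference of 0.63. SNTN, a protein of the tips of cilia, had -0.59 and -2.10, a difference of 1.52, and its second probe was not well above background on either array. CDC20B, also dim, differed by 0.82. The lower ones were PAX8, a transcription factor of duct epithelium, with -0.70 from -3.22 and -2.53 and 0.08 in a second probe, and the mucin MUC1, with -0.29 from -2.84 and -2.56, though a dimmer probe of MUC1 was measured on the crossbred array alone. Of the epididymis list, CST8 had 2.43 and -0.44, a difference of 2.87, and ELSPBP1 had -1.68 and -4.91, a difference of 3.22. The probe of GPX5 was 11.1-fold higher on the crossbred array by its measured signals, the Zebu one dim. Of its 2 spots, 1 lies in the dark patch, dim on the Zebu array, and differed by 3.45, and the other, outside it and measured on both arrays, differed by 3.50. The other 2, DEFB119 and DEFB123, differed by 0.38 and -0.32. In RNA of whole tissue, the cells that gave a transcript of these lists, CST8 included, cannot be told. The part of duct and epididymal cells in the differences was not tested.

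**Figure D5:**
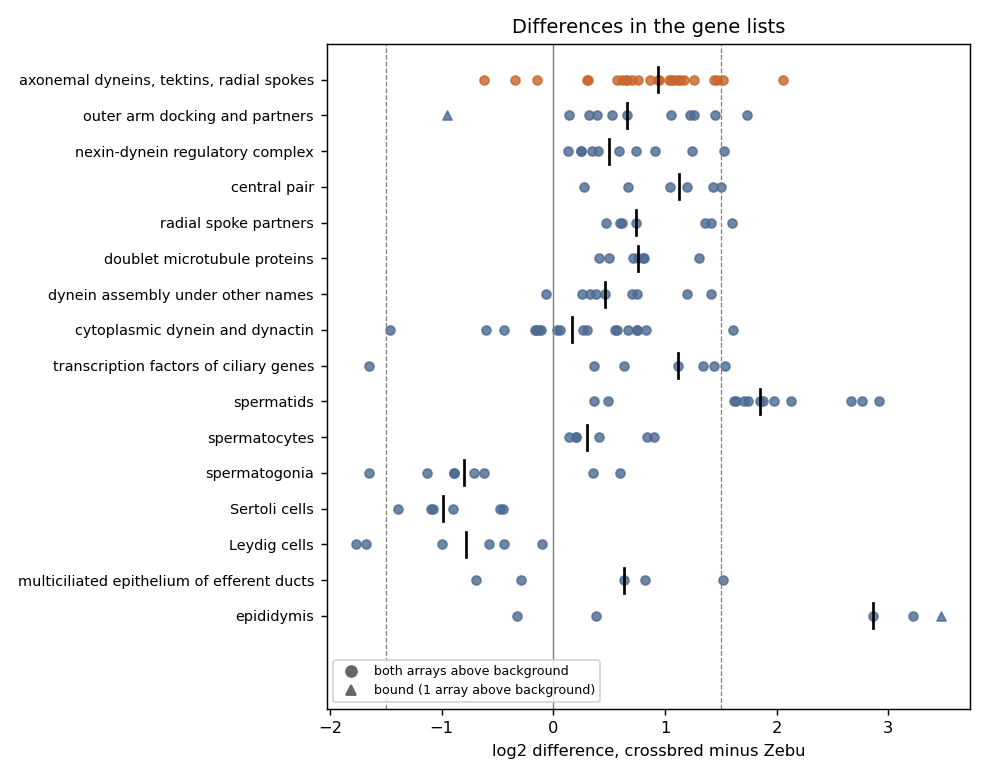
Log2 difference, crossbred minus Zebu (x axis), of each detected gene of the axonemal families (orange) and of 15 gene lists (blue), 1 row per list with a black line at its median and broken lines at 1.5. Triangles are genes well above background on 1 array, drawn at a bound or, for GPX5, at the measured difference. The axonemal families have a median of 0.94, between that of the cytoplasmic dyneins and dynactins, 0.16, and that of the spermatid markers, 1.86.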

How the data were processed

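Total RNA of 3 testes per group was pooled, labelled with Cy3 and hybridized to 1 bovine array per group. The values deposited by the authors are spot intensities from Feature Extraction 11.5.1.1. Per the file headers, the processed intensity had its background and spatial trend removed within each array, with nothing done between arrays. Mean and local background intensities and the software's marks were deposited beside it. The authors also deposited log2 values, the log2 of the mean processed signal of a probe minus a 75th percentile, which on these arrays was a shift of 10.20 and 10.27 that 94.5% and 94.2% of the probes followed within 0.01. The columns had medians of -3.00 and -3.01, and the scale and direction follow from this match.

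Control spots and 13 spots marked as outliers were left out, repeated spots were averaged on the log2 scale, and each array was shifted by its 75th percentile, a signal of 1176 and 1233. Of the spots, 72.0% and 74.3% were well above background. A dim array entered as its lowest value well above background, -5.78 on the crossbred and -5.94 on the Zebu array, or its own value if higher. The fold is a bound in the first case and the measured fold in the second. Counts at a threshold used the measured difference wherever the brighter array was well above background. Every gene of the families was named, with its difference where an array measured it. Members and lists were chosen with earlier results of these data known. A few genes were taken out of the lists and have no values here. Alternatives included normexp correction with an offset of 50 in limma 3.58.1 (R 4.3.3). Python 3.11.15, numpy 2.4.6, pandas 2.3.3 and scipy 1.17.1 were used, and the steps were tested on simulated data. The qPCR of the study was not analysed here.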

Additional observations from a re-analysis of the deposited data

How the results depend on the processing

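The median difference over the axonemal genes was 0.94 and lay between 0.75 and 0.98 under every alternative that was run. None of the genes counted was lower by 1.5 or more under any alternative. WDR78, read with the other axoneme lists, was not counted. Its measured difference was -3.18, with a crossbred signal not well above background. Of 12 alternatives with values per gene, 6 left the genes as they were or shifted them nearly alike, by at most 0.03, and say little. Of the 150 values of single genes under the other 6, 145 stayed within the SD between spots of the reported value, and 1, of DNAH2 relative to names of like signal, took the other sign, at 0.01. The count of genes higher by 1.5 or more was 2, and TEKT4 lay at this threshold. The count was 1 after normexp background correction, which left DNAH3 at 1.31, and also 1 with quantile normalization, at a threshold of 2 and when the 75th percentile was taken from the probes that both arrays measured well above background. It was 3 with every probe counted, with a gene's probes averaged, with the median of its detected probes and relative to names of like signal, 11 at a threshold of 1 and 5 with the family members under other names, which were added after seeing the data, as were the comparison with names of like signal and the probe with the highest signal on either array. With normexp the medians were 0.25 for multiciliated cells and 1.89 for the epididymis. The epididymis median was 1.65 with the median of the probes well above background on both arrays and 1.62 with only such probes. The other list medians stayed within the SD between spots. No paired analysis was possible because each group has 1 array, and for the same reason no array could be left out. RSPH4A was too dim for a value, and the difference of DNAH3 fell below the threshold with normexp.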
